A study of Mus musculus with 6 samples.

Results

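The genes described here build the triad of skeletal muscle and couple its electrical excitation to calcium release. The set holds 10 genes: Ryr1, Cacna1s, Cacnb1, Cacng1, Jph1, Jph2, Trdn, Stac3, Fkbp1a and Asph. Members were taken as every probe whose gene symbol in the platform annotation is one of these names, which gave 30 probes for 9 genes among the 45281 probes of the array. The annotation used here pairs no probe with Cacna1s, so its level was not measured. Of the other 9 genes, 8 had a probe above background and were tested among 9978 genes in all, and Trdn did not.

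A triad is the site where a tubule of the surface membrane, the T-tubule, lies between a pair of terminal sacs of the sarcoplasmic reticulum, the calcium store of the fibre. The voltage sensor in the T-tubule, a calcium channel complex built on the protein of Cacna1s, is mechanically linked to the ryanodine receptor in the store membrane. When the fibre is excited, the sensor opens the receptor, and the released calcium starts contraction. Fast fibres, which make up most of the tibialis anterior of the lower hindlimb, are known for dense triads.

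Gene expression was measured in tibialis anterior muscle of 3-month-old male mice. The first group, 3 arrays, is labelled as carrying a PGC1b transgene, PGC-1β being the transcriptional coactivator encoded by Ppargc1b, and the second, 3 arrays, is wild type. The labels name neither the promoter that drives the transgene nor the mouse strain. Each sample was read on a 1-colour Illumina Mouse WG-6 v2 array, and the number of arrays limits the precision of every value. Nothing in the labels says that the arrays are separate animals, and the spread behind each p-value may be technical.

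The check of the labels came first. The single Ppargc1b probe gave unnormalized signals of 281.3, 373.4 and 309.8 on the arrays labelled transgenic, against 497.2, 648.7 and 708.9 on the wild-type arrays, a log2 change of -1.32 (SE 0.21, limma adjusted p = 0.000734). The probe therefore went against the label. Whether the transgene's mRNA holds the stretch that this probe reads is not known here, and the arrays are called "labelled transgenic" throughout. Every direction below rests on the labels. Probes above background, at a detection p under 0.05, numbered 17525 to 17604 on the arrays labelled transgenic and 15338 to 15691 on the wild-type arrays. All 10 skeletal fibre markers were above background on all 6 arrays, so the markers bear out skeletal muscle. They do not tell the tibialis anterior from other muscles.

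Triad genes were lower in the muscles labelled transgenic, most of them by more than 2-fold. Of the 8 measured members 7 fell and 0 rose, where "fell" and "rose" mean an adjusted p under 0.05 in limma. Over all genes tested, 28.2% were lower and 28.1% higher by the same rule. By a stricter rule, lower by at least 2-fold as well, 6 of the 8 members were called, against 6.45% of all genes. The median log2 change of the 8 members was -1.68, and that of all 9978 genes was -0.03. In bulk tissue, fewer fibres and less RNA per fibre cannot be told apart. When a median over all probes was used to scale the arrays in place of quantile normalization, a choice made after seeing the data, 3772 genes were higher and 1607 lower, the median change of all genes moved to 0.19, and 6 members were called lower.

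In all 8 measured members the 3 normalized values of the muscles labelled transgenic lay below the 3 wild-type values, a pattern found in 32.3% of all genes. An exact permutation test of any of these genes alone gives p = 0.1, the smallest that 3 arrays against 3 allow. The SD between arrays of a group ranged over the members from 0.09 to 0.51 log2 units in muscles labelled transgenic and from 0.03 to 0.16 in wild type.

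**Figure D1:**
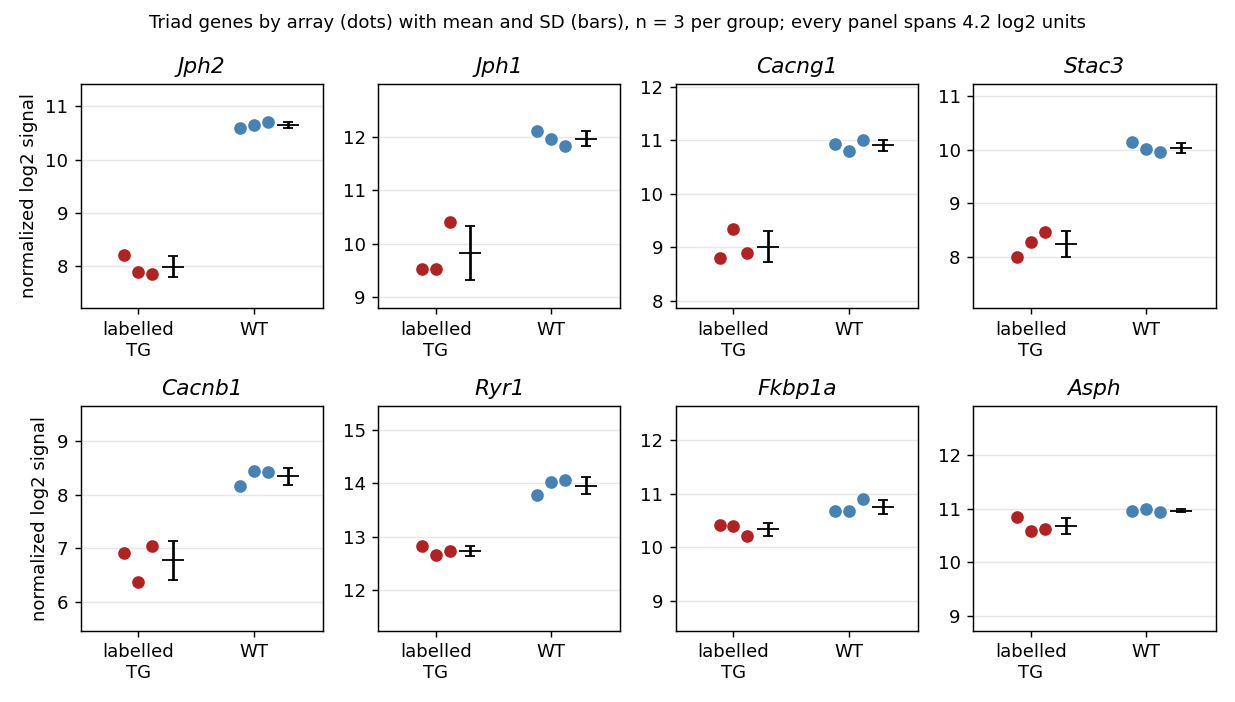
Normalized log2 signal of the 8 measured triad genes on each array, with mean and SD beside the dots (n = 3 per group). Arrays labelled transgenic are on the left of each panel, and all panels span the same number of log2 units. The groups are far apart for Jph2 (means of 7.99 labelled transgenic and 10.65 wild type) and close together for Asph (10.68 labelled transgenic and 10.96 wild type).

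The voltage sensor complex was represented by 2 of its accessory subunits and by its adaptor, and all 3 fell. Cacnb1 encodes the cytoplasmic β subunit that is needed to bring the channel to the membrane. Its unnormalized signals were 204.5, 152.7 and 184.2 on the arrays labelled transgenic, against 319.5, 367.8 and 355.5 in wild type. The groups did not overlap, and the array labelled transgenic replicate 2 was the lowest of all. On the normalized log2 scale Cacnb1 averaged 6.77 ± 0.36 in muscles labelled transgenic and 8.35 ± 0.16 in wild type (SD, n = 3 each), a change of -1.57 (SE 0.18, adjusted p = 0.000136).

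Cacnb1 has a second probe (ILMN_2603539), annotated to a different transcript. It was dim, with signals of 98.7, 96.3 and 90.1 on the arrays labelled transgenic and 104.6, 118.2 and 108.4 in wild type. It changed in the same direction, by -0.81 (SE 0.13, adjusted p = 0.000794 over all 17166 probes above background). Differences of probes this close to background are compressed by the offset of 16 added in the background correction.

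Cacng1 encodes the γ subunit of the muscle calcium channel, a membrane protein that in mice limits the channel's current. Its signals were 576.9, 763.8 and 514.3 on the arrays labelled transgenic, against 2034.3, 1747.3 and 1990.3 in wild type. All values of the muscles labelled transgenic were below the lowest wild-type value. The normalized level was 26.8% of the wild-type level, a log2 change of -1.90 (SE 0.16, adjusted p = 2.13e-05), from means of 9.01 ± 0.29 in muscles labelled transgenic and 10.91 ± 0.11 in wild type (SD, n = 3 each).

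Stac3 encodes the adaptor protein that binds the channel and is required for coupling in skeletal muscle. It read 358.9, 402.4 and 395.6 on the arrays labelled transgenic, against 1156.7, 1012.2 and 951.4 in wild type. The gap between the groups was wider than the range within either. Stac3 fell to 28.8% of the wild-type level, a log2 change of -1.79 (SE 0.14, adjusted p = 1.55e-05). Cacna1s, the pore and voltage sensor itself, has no value here.

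The release channel fell on every probe that read it. Ryr1 encodes the calcium release channel of the store. Its signals were 7725.5, 6671.7 and 6367.5 on the arrays labelled transgenic, against 14687, 16861.4 and 17706.1 in wild type. Every wild-type signal was above every signal of the muscles labelled transgenic. The normalized means were 12.73 ± 0.09 in muscles labelled transgenic and 13.95 ± 0.16 in wild type (SD, n = 3 each), a log2 change of -1.22 (SE 0.12, adjusted p = 5.76e-05), or 43.0% of the wild-type level.

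Ryr1 is the member with the most probes above background, and all 5 of its probes fell. Their changes ranged from -1.61 to -1.22, and the smallest was that of the brightest probe, which stands for the gene. Probe ILMN_2842357 read 2076.3, 2342.8 and 2224.4 on the arrays labelled transgenic, against 6884.3, 6090 and 6200.9 in wild type, a change of -1.61 (SE 0.13). Probe ILMN_1258021, annotated to a different cDNA, was dim, at 112.7, 111.8 and 85.6 on the arrays labelled transgenic and 152.2, 149.2 and 151.5 in wild type, and changed by -1.39. All 5 probes were above background on all 6 arrays.

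Fkbp1a encodes FKBP12, a prolyl isomerase of many cell types that binds the ryanodine receptor and steadies its closed state. Its signals were 1585.9, 1474.6 and 1186.6 on the arrays labelled transgenic, against 1690.7, 1599.8 and 1840.9 in wild type. The groups did not overlap but nearly touched. The log2 change was -0.42 (SE 0.12, adjusted p = 0.0164), which left 75.0% of the wild-type level. Without wild-type replicate 3 the change was -0.34 and no longer passed (adjusted p = 0.0618), and with arrays scaled to the median of all probes it did not pass either (-0.34, adjusted p = 0.0608).

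The junctophilins, which hold the store membrane to the T-tubule, had the largest fitted changes of the set. Jph2 read 412.5, 327.9 and 280.4 on the arrays labelled transgenic, against 1578.4, 1576 and 1605.5 in wild type. The 3 wild-type signals were nearly equal, and none of the others came near them. On the log2 scale the means were 7.99 ± 0.20 in muscles labelled transgenic and 10.65 ± 0.05 in wild type (SD, n = 3 each), which put Jph2 at 15.9% of the wild-type level (95% interval of the log2 change -2.94 to -2.36, adjusted p = 1.34e-06).

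Jph2 has 2 further probes, both annotated to a different transcript record and both dim. They changed by -1.30 and -1.84. Probe ILMN_2628876 was above background on 1 array labelled transgenic and on 3 wild-type arrays, with signals of 102, 78 and 80 on the arrays labelled transgenic and 160.7, 145.1 and 147.1 in wild type. All 3 Jph2 probes thus fell. The dim ones were partly at background in the muscles labelled transgenic, which limits the size of their change, so it is not set against that of the bright probe.

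Jph1 encodes the junctophilin that predominates in skeletal muscle. Its signals were 910.8, 858.7 and 1354 on the arrays labelled transgenic, against 4477.5, 3916.4 and 3549.7 in wild type. Replicate 3 of the muscles labelled transgenic stood above the other 2, and the group's SD of 0.51 was the largest of any member. The log2 change was -2.14 (SE 0.23, adjusted p = 8.53e-05), or 22.6% of the wild-type level. The second Jph1 probe (ILMN_1217728) read 231.7, 207.2 and 223.8 on the arrays labelled transgenic and 626.5, 439.3 and 540.2 in wild type and changed by -1.81 (SE 0.16), with replicate 3 again the highest on the normalized scale but close to the others.

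**Figure D2:**
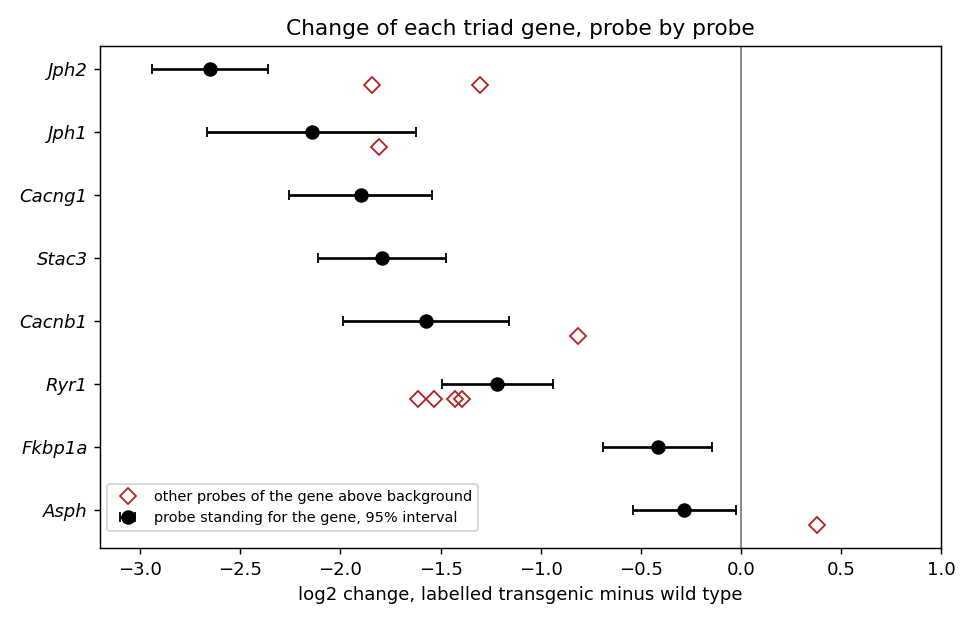
Log2 change, labelled transgenic minus wild type, of the probe that stands for each gene (black, with its 95% interval) and of the gene's other probes above background (open diamonds). All probes of Jph2, Jph1, Cacnb1 and Ryr1 lie below 0, and the 2 Asph probes lie on either side of it (-0.28 and 0.38).

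The last group of members anchors calcium-binding proteins to the release channel inside the store. Trdn encodes triadin, which links the ryanodine receptor to calsequestrin. Its only annotated probe read 66.7, 63.2 and 64.1 on the arrays labelled transgenic and 64.7, 74.9 and 70.5 in wild type, with detection p-values from 0.223 to 0.818. Trdn was not above background on any array, and no change can be given for it.

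Asph is one locus that, by splicing, gives the enzyme aspartyl β-hydroxylase and the store proteins junctin and junctate. It has 14 annotated probes, of which 2 were above background on all 6 arrays, 3 on 1 array labelled transgenic each, and the other 9 on none. The brightest read 2081.5, 1665.7 and 1547.1 on the arrays labelled transgenic, against 2050.9, 2002.5 and 1881.3 in wild type. Its unnormalized groups overlapped, since replicate 1 of the muscles labelled transgenic was the highest of the 6. The normalized change was -0.28 (SE 0.11, adjusted p = 0.0611) and did not pass.

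The second Asph probe (ILMN_1233759), annotated to a different transcript, went the other way. All Asph probes at background are annotated to the same transcript record as this second probe. It read 258.4, 217.3 and 186.3 on the arrays labelled transgenic, against 163.2, 149.2 and 137.7 in wild type, without overlap. Its log2 change was 0.38 (SE 0.14, adjusted p = 0.0430 over all probes). The call was lost, with adjusted p from 0.051 to 0.143, in 6 alternatives: without the filter on dim probes, with an intensity trend in the variance, and without replicates 1 or 2 of the muscles labelled transgenic or replicates 2 or 3 of wild type. Which product each probe reads is not given by the annotation, and the mean of both probes changed by 0.05 (adjusted p = 0.75). Over all probes above background, 27.9% were lower and 25.5% higher.

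**Figure D3:**
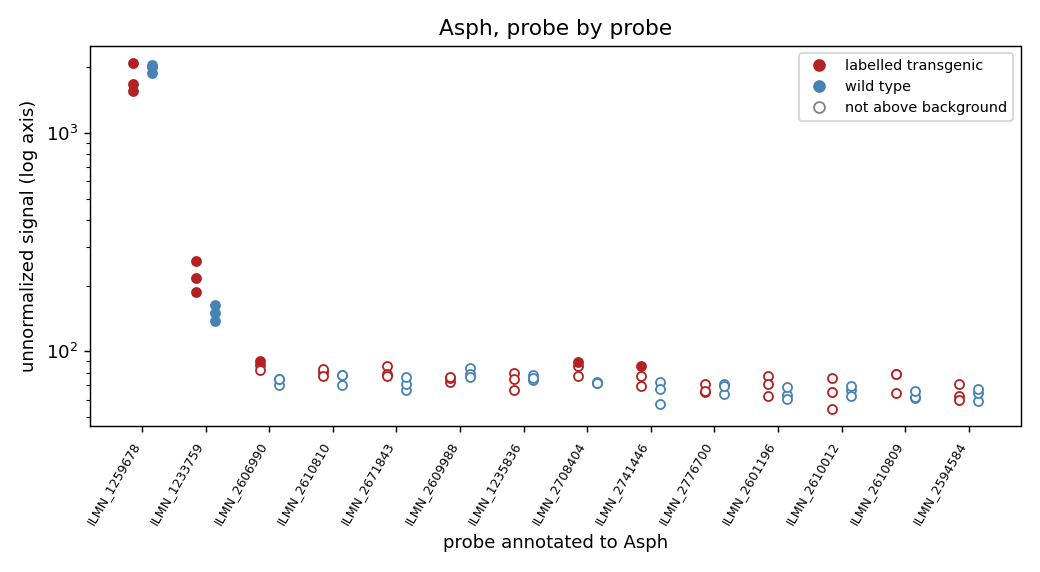
Unnormalized signal (log axis) of the 14 probes annotated to Asph on the 3 arrays labelled transgenic (left) and the 3 wild-type arrays (right), with open symbols where the probe was not above background. The 2 probes above background on all arrays differ in direction, and the other 12 lie at background level.

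The log2 changes of the 8 measured members, from the lowest, ran in the order Jph2, Jph1, Cacng1, Stac3, Cacnb1, Ryr1, Fkbp1a and Asph. Each of the 7 neighbouring pairs in this order was compared by the difference of their log2 values on each array. The largest step was between Ryr1 and Fkbp1a, with a difference of changes of -0.80 (SE 0.11) and no overlap between groups. Cacnb1 and Ryr1 were also without overlap (-0.36, SE 0.18), but their order was not stable. The difference was -0.11 with an offset of 50 and near 0 with no background correction, and it turned to 0.02 with arrays scaled to a median and to 0.24 with the mean over each gene's probes. Each of these pairs reached an exact p of 0.1, the smallest possible, or 0.35 adjusted over the 7 pairs.

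The other 5 neighbouring pairs overlapped, among them Jph2 and Jph1 (-0.51, SE 0.39, exact p = 0.2). Their exact p ranged from 0.2 to 0.9 and their adjusted p from 0.467 to 0.9. The order within the accessory genes and between the junctophilins is thus not resolved by 3 arrays per group.

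Set among all genes ranked from the lowest change, Jph2 was number 34 of 9978, Jph1 number 76, Cacng1 number 114, Stac3 number 135, Cacnb1 number 192 and Ryr1 number 392. All 6 lie in the lower tail of the distribution. Fkbp1a and Asph lie in the body of the distribution, at ranks 2522 and 3366.

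**Figure D4:**
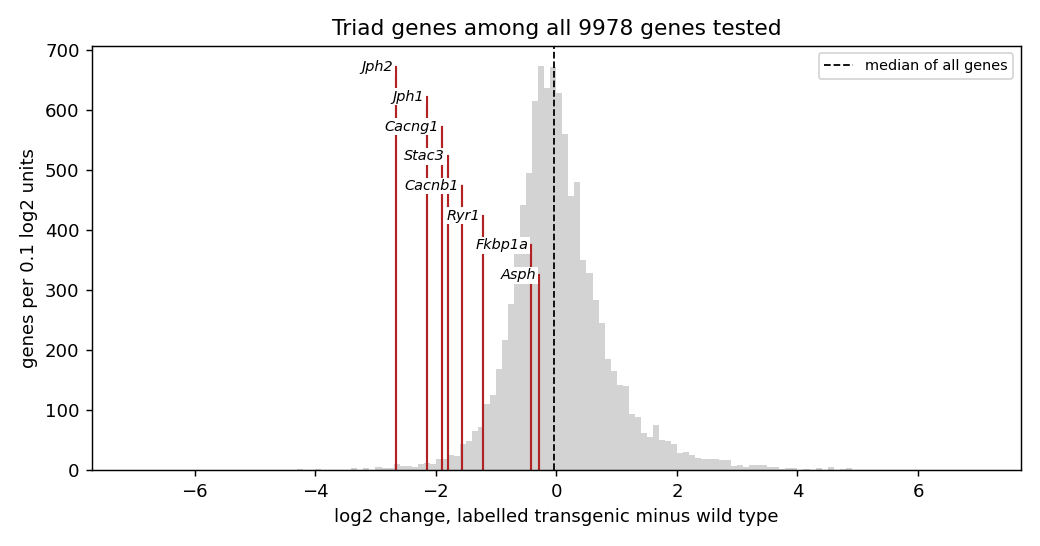
Histogram of the log2 change, labelled transgenic minus wild type, of all 9978 genes tested, with the 8 measured triad genes marked. From Jph2 (-2.65) to Ryr1 (-1.22) the members lie in the lower tail. Fkbp1a (-0.42) and Asph (-0.28) lie in the body of the distribution, below the median of all genes (-0.03).

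A wider list of 50 genes was read in the same fit, made up of genes of the triad, T-tubule and calcium entry and of 15 paralogues of the members. Of the 50, 28 were measured, 3 of them paralogues. Among the 28, 17 fell and 3 rose, with a median log2 change of -0.67, against 28.2% lower and 28.1% higher over all genes. Among 12 genes of the junction and the store, 9 fell and 2 rose, with a median of -0.73. The 2 calsequestrins, the calcium-binding proteins of the store, went opposite ways. Casq1, the form of fast fibres, read 685.7, 736.8 and 746.9 on the arrays labelled transgenic, against 2725.4, 2169.9 and 2006.5 in wild type, a change of -1.88 (SE 0.15, adjusted p = 1.52e-05).

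Casq2, the form of heart and slow fibres, read 1348.3, 1177.2 and 898.7 on the arrays labelled transgenic, against 237, 305.8 and 213.3 in wild type. It was higher on every array labelled transgenic, with a change of 2.21 (SE 0.18, adjusted p = 1.98e-05). The second gene that rose, named after its value was seen, was S100a1, whose product is a calcium sensor that binds the ryanodine receptor (0.73, SE 0.11, adjusted p = 0.000579).

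Other partners of the release machinery also fell. Cacna2d1, the α2δ subunit that is a further part of the voltage sensor complex, changed by -1.56 (SE 0.25, adjusted p = 0.000765), but its 3 probes above background ranged from -1.56 to 0.35, only 1 was called, and their mean did not pass (-0.32, adjusted p = 0.103). Tmem38a, which encodes a potassium channel of the store membrane that balances charge during calcium release, changed by -1.24 (SE 0.12, adjusted p = 4.47e-05).

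Among 7 genes that shape or repair the T-tubule, 3 fell and 1 rose, against 28.2% lower and 28.1% higher over all genes, so with so few genes the counts are not far from those shares. Ank1, the gene of an ankyrin whose small form ties the store to the contractile apparatus, changed by -1.35 (SE 0.15, adjusted p = 0.000107). Bin1, a membrane-bending protein of T-tubule formation, changed by -0.73 (SE 0.12, adjusted p = 0.000932) and the repair gene Dysf by -0.65 (SE 0.11, adjusted p = 0.00135). Ehd4, which encodes an endocytic recycling ATPase, rose by 1.59 (SE 0.12, adjusted p = 1.13e-05).

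Store-operated entry, which refills the store from outside the fibre, was lower in 4 of 6 measured genes and higher in 0, against the same shares over all genes. Stim2, a calcium sensor of the store, had 2 probes above background with changes of -1.60 and -0.40, and the brighter gave adjusted p = 2.05e-05. Even the brighter was dim, with signals of 119.5, 107.4 and 102.6 on the arrays labelled transgenic and 206.5, 180.7 and 163.1 in wild type. The size of its change depended on the background step, at -0.98 with no background correction and -1.14 with an offset of 50. Orai1, the entry channel in the surface membrane, changed by -0.92 (SE 0.12, adjusted p = 0.000272). Orai3, a relative of Orai1, changed by -0.78 (SE 0.20, adjusted p = 0.00997), although its unnormalized signals of 178.8, 153 and 118.5 on the arrays labelled transgenic overlapped the 150.1, 196.3 and 183.3 of wild type, and the call was lost with arrays scaled to the median of all probes (-0.42, adjusted p = 0.141). Saraf, a brake on this entry, changed by -0.35 (SE 0.10, adjusted p = 0.0158) and did not pass without wild-type replicate 3 (adjusted p = 0.0524).

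Paralogues of the members were mostly at background. Of 15 listed, 3 were measured, and 1 of them fell, near the share of 28.2% lower over all genes. This was Cacng6, a γ subunit gene related to Cacng1, which changed by -1.25 (SE 0.11, adjusted p = 3.10e-05). Cacng6 was dim, with signals of 140.6, 130.4 and 117.7 on the arrays labelled transgenic and 193.8, 175 and 196.9 in wild type. The 5 probes of Ryr2, the release channel of heart, and the 4 of Ryr3, the third ryanodine receptor, were not above background on any array. The same held for the single probes of Jph3 and Jph4 and for the 7 probes of Cacna1c, the cardiac channel pore. Fkbp1b, the second FKBP form, was above background on 2 arrays labelled transgenic, with signals of 108, 90.9 and 81.2, and on none of the wild-type arrays, with 68.4, 68 and 75.9, and was not tested.

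**Figure D5:**
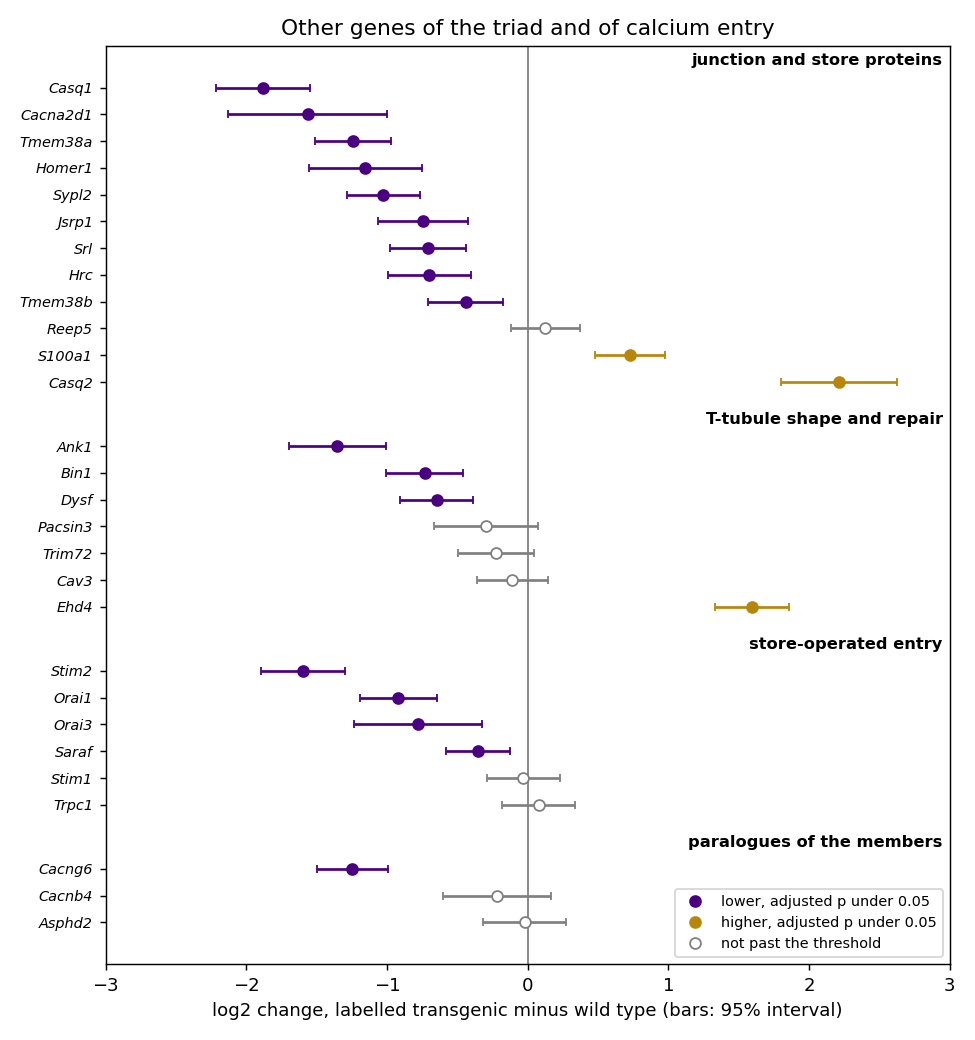
Log2 change, labelled transgenic minus wild type, with its 95% interval for the 28 measured genes of 4 lists. Filled symbols passed an adjusted p of 0.05 and open ones did not, and Casq1 (-1.88) and Casq2 (2.21) mark the ends of the range.

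Of 10 markers of muscle fibres, 4 fell and 1 rose, with a median log2 change of -0.14. The counts are not far from the 28.2% lower and 28.1% higher over all genes. The list includes genes of fast fibres, so its counts and median are not a measure of fibre content alone. Myh4, the myosin of the fastest fibres, changed by -3.91 (SE 0.36, adjusted p = 3.98e-05) and Actn3, the α-actinin of fast fibres, by -3.61 (SE 0.12, adjusted p = 2.07e-07). Des, the intermediate filament desmin, was the 1 that rose and is named after its value was seen (0.71, SE 0.11, adjusted p = 0.000679). The other 7 changed by -0.33 to 0.23. Without replicate 2 of the muscles labelled transgenic, or without replicates 1 or 2 of wild type, 2 fibre markers fell, without replicate 1 of the muscles labelled transgenic 2 rose, and with arrays scaled to the median of detected probes 8 fell. The summed normalized signal of the fibre list was 146830 to 152550 on the arrays labelled transgenic and 191900 to 199160 in wild type. Much of this difference lies in the 2 fast-fibre genes Actn3 and Myh4. Their mean log2 levels were 11.06 and 9.87 labelled transgenic, against 14.68 and 13.78 in wild type.

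Markers of macrophages and of the matrix were higher in the same arrays. Over all genes tested, 28.1% were higher. All 9 measured macrophage markers rose, with a median change of 2.55 and a summed signal of 11883 to 19818 on the arrays labelled transgenic, against 1666 to 2059 in wild type. Of 9 fibroblast and matrix markers 8 rose, with a median of 1.70 and sums of 22651 to 27643 labelled transgenic and 13170 to 14058 wild type. Of 6 endothelial markers 2 fell (median -0.23, sums of 2426 to 2591 labelled transgenic and 2706 to 2891 wild type) and of 6 smooth muscle and pericyte markers 2 fell (median -0.11, sums of 7076 to 7984 labelled transgenic and 7233 to 8137 wild type), counts near the share of 28.2% lower over all genes. Of 6 heart markers 3 were measured, 2 higher and 1 lower, with sums of 348 to 374 labelled transgenic and 90.2 to 122 wild type. The 2 higher ones, Nppa and Nppb, were above background on 3 arrays labelled transgenic and 0 wild-type arrays. They thus passed the filter only through the group where they were higher. With only probes above background on all 6 arrays, 0 heart markers were higher. Of 4 fat markers 2 were measured and 1 rose, with sums of 616 to 1581 labelled transgenic and 301 to 353 wild type. The heart and fat counts rest on too few genes to be set against the share higher over all genes. Of the lists' members, Cd68, Tnnt2 and Cfd have no annotated probe, Emr1 is an older symbol of Adgre1, which was measured, and Itgam, Postn, Tnni3, Myl7 and Plin1 had none that passed the filter. The count of lower endothelial markers was 1 in 11 alternatives, among them those without replicate 1 of the muscles labelled transgenic and without any of the wild-type arrays in turn. The count of lower heart markers was 0 in 6 alternatives, among them those without replicates 2 or 3 of the muscles labelled transgenic and without replicates 1 or 3 of wild type. The part of these cells in the fall of the triad genes was not tested.

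Since most members fell together, the promoters of those with an entry in the RefSeq table (GRCm38.p6) were read for short motifs in the 250 bases before the gene start. The table holds 7 such windows for 5 members, Ryr1, Cacna1s, Cacnb1, Jph2 and Fkbp1a. These are not the same genes as those that fell, since Cacna1s was not measured and Jph1, Cacng1 and Stac3 have no window. The motifs searched, on both strands, were the E-box CANNTG bound by muscle bHLH factors, its form CAGCTG, the half-site AAGGTCA bound by estrogen-related receptors, which are partners of PGC-1 coactivators, and the GC box GGGCGG. Each CAGCTG site also counts as CANNTG. Shown are the gene with the largest fall, the release channel and the member with the smallest change that passed, each 5′ to 3′ on the gene's strand with motif matches in capitals.

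Jph2, chr2:163397974-163398223, minus strand: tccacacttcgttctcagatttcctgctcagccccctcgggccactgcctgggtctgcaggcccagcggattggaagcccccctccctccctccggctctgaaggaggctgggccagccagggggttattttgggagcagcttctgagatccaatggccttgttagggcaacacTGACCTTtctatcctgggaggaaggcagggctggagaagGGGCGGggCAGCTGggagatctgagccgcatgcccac
Ryr1, chr7:29125152-29125401, minus strand: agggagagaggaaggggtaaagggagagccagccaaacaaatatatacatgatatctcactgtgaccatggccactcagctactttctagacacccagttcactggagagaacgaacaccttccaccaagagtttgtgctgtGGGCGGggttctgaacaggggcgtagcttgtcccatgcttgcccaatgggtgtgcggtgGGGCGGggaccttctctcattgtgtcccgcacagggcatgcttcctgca
Fkbp1a, chr2:151542233-151542482, plus strand: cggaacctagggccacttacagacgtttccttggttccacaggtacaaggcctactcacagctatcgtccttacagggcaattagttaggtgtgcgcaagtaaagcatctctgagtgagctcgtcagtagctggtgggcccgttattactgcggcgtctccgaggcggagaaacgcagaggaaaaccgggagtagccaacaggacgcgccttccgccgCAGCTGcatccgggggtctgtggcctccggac

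The Jph2 window holds AAGGTCA on the other strand (TGACCTT in the letters shown, 76 to 70 bases before the start), a GC box at 37 to 32 and CAGCTG at 29 to 24. A second Jph2 window, for a start nearby, holds the same sites. The Ryr1 window holds 2 GC boxes, at 108 to 103 and 49 to 44 bases before the start, and no match to the other letters. The Fkbp1a window holds CAGCTG at 32 to 27. Of the 7 member windows, 5 hold CANNTG, 4 hold CAGCTG, 5 hold GGGCGG and 2 hold AAGGTCA. The 2 Jph2 windows overlap, and both enter each of these counts. Of the 5 genes, 4 hold CANNTG, 3 hold CAGCTG, 4 hold GGGCGG and 1 holds AAGGTCA. Among all 32851 windows of the table, 66.2% hold CANNTG, 13% hold CAGCTG, 32.7% hold GGGCGG and 4.1% hold AAGGTCA. A match of letters is a description of the window and shows no binding.

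The genes whose values over the 6 arrays ran closest to those of Ryr1, by the root-mean-square distance between values centred on each gene's mean, were Zhx2 (0.04 log2 units), Kcnc4 (0.05), Tenm3, Lrrfip1 and Axin1 (0.07 each). Their changes were between -1.34 and -1.17. With 2 groups far apart, this distance follows mainly the size of the change between groups.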

How the data were processed

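Tibialis anterior RNA of 3 samples labelled transgenic and 3 wild-type samples was amplified to biotinylated cRNA and hybridised to Illumina arrays, per the labels' protocols. GenomeStudio is named, with no version, per the submitters' processing notes. The unnormalized table holds, per the file headers, an intensity and a detection p-value for each probe and array. The authors' second deposited table holds intensity values from -22.6 to 30836.5, with array medians of 6.2 to 6.3. From the negative values and the near-equal medians it was taken as background-subtracted and normalized between arrays.

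Intensities were corrected by normexp with an offset of 16, quantile-normalized and log2-transformed (neqc, limma 3.58.1, R 4.3.3). Probes with detection p under 0.05 on at least 3 of 6 arrays were kept, 17166 of 45281. Of all probes the platform annotation gives 1 symbol to 34885, several to 18 and none to 10378, and 34807 matched RefSeq by Entrez ID. The kept probe with the highest mean stood for its gene. Across all 9978 genes the groups were compared with lmFit and eBayes, two-sided, with Benjamini-Hochberg adjustment and a threshold of 0.05. Every adjusted p is from limma unless called exact. The test was tried on simulated data. The array slides are not given in the sources used here. Sums of marker lists add normalized signals on the linear scale.

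The members and lists were chosen with earlier results of these data known, and so was the rule for named genes: all members with every probe, up to 4 called genes per list by size of change (or, with none called, the 2 lowest in p), up to 2 members per marker list, and 5 genes closest to Ryr1. S100a1 and Des fall outside it. Motifs, and the fibre, macrophage, matrix, endothelial, smooth muscle, heart and fat lists, are descriptive. Alternatives changed the background correction, normalization, filter, probe summary, variance model, value table, block and arrays included.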

Additional observations from a re-analysis of the deposited data

How the results depend on the processing

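Counts, most named genes, second probes and the steps between neighbouring members were recomputed under 16 alternatives (14 or 15 for single probes). All but the member, context and all-gene results were added after seeing the data. Marker sums, ranks, the changes of Nppa and Nppb and the choice of genes closest to Ryr1 were not recomputed. Jph2, Jph1, Cacng1, Stac3, Cacnb1 and Ryr1 kept direction and call under all of them, with log2 changes from -2.80 to -1.93 for Jph2 and from -1.56 to -1.14 for Ryr1. Fkbp1a ranged from -0.59 to -0.34 and lost its call without wild-type replicate 3 and with arrays scaled to the median of all probes. Asph, which did not pass in the report's fit, passed in 6 alternatives and ranged in adjusted p from 0.00565 to 0.75. It reversed to 0.048 in the mean over its probes, since its second probe went the other way. Scaling to the median of all probes called 1607 genes lower, against 2812 in the report, and the cause was not tested. Among named genes outside the set, Cacna2d1, Orai3 and Saraf each lost their call in 1 alternative. The step from Ryr1 to Fkbp1a stayed between -1.02 and -0.72. With no filter on dim probes, 5 context genes were higher, against 3, in a fit of 19060 genes. With the replicate number as a replicate block, 7 members were lower, as without it. Same-numbered arrays did not deviate together (correlations -0.05, 0.03 and -0.002), so the numbers were not taken as pairs. A block for the array slide could not be run, since the files name no slide. Probes near background limit what can be read of Trdn and most Asph probes.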
